A study of Mus musculus with 4 samples.

Results

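Genes by which macrophages and their neighbours take up and bind lipid were followed in liver cells of mice given carbon tetrachloride (CCl4) and of mice given corn oil. The 9 genes were chosen by name: the scavenger receptors Cd36, Marco and Msr1, lipoprotein lipase Lpl and its anchor Gpihbp1, the fatty acid binding proteins Fabp4, Fabp5 and Fabp7, and the lipid droplet coat protein Plin2. They are 9 of the 25149 genes listed in at least 1 of the 4 tables, and all 9 had counts in every library. The mice were wild-type males, 8 to 10 weeks of age, given intraperitoneal injections 2 times weekly over 5 weeks, and livers were taken 48 hours after the final one. The 2 CCl4 mice received 10 µl per g of body weight of a mixture of 1 part CCl4, a solvent that injures hepatocytes, with 9 parts corn oil. The 2 corn oil mice received corn oil alone. The labels name no strain, and each library is described as the cells of 1 mouse. Livers were perfused with pronase and collagenase, and a spin at 50 × g removed hepatocytes, so the cells sequenced are those that survived dissociation and do not sediment with hepatocytes.

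Lipid reaches liver macrophages by several routes. Scavenger receptors bind modified lipoproteins, long-chain fatty acids and cell debris, while lipoprotein lipase frees fatty acids from triglyceride-rich lipoproteins, on capillary walls where GPIHBP1 holds it. Fatty acid binding proteins carry the fatty acids inside the cell, and surplus is esterified and stored in droplets coated by perilipins such as PLIN2. Kupffer cells are the resident macrophages of the sinusoids, stellate cells store vitamin A and lay down matrix after injury, and sinusoidal endothelial cells line the vessels between them.

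Cells were sorted into 4 gates by their molecule counts (unique molecular identifiers, UMIs) of 10 genes that are not among the 9. A Kupffer cell had at least 5 UMIs of Clec4f. A monocyte had at least 3 UMIs of Chil3, F13a1 and Vcan together and at most 2 of Clec4f. An endothelial cell had at least 5 UMIs of Kdr, Ptprb and Egfl7 together, and a stellate cell at least 5 of Reln, Colec11 and Lrat. The libraries kept 6141 and 5621 CCl4 cells and 6852 and 7247 corn oil cells, with total UMIs of 45408857 to 55529871 per library before filters. The Kupffer gate held 228 and 225 CCl4 cells and 217 and 222 corn oil cells. The monocyte gate held 911 and 1349 CCl4 cells, against 43 and 23 corn oil cells. The endothelial gate held 3085 and 2795 CCl4 cells and 5287 and 5370 corn oil cells, and the stellate gate 462 and 144 CCl4 cells and 179 and 145 corn oil cells. Between 5.03% and 12.2% of the kept cells of a library passed 2 gates and were dropped, as candidate doublets. The loss was larger for Kupffer cells. Kept cells with at least 5 Clec4f UMIs numbered 477 and 332 in CCl4 mice and 636 and 869 in corn oil mice. Most of these were dropped in CCl4 1 and in both corn oil mice. Any pair of libraries shared 48 to 74 cell barcodes, at most 1.17% of the smaller library, where 42.4 to 62.1 would be shared by chance among all barcodes. The pair with 74 was CCl4 1 and corn oil 2, with 54.7 by chance. Per the labels all 4 libraries are 1 batch.

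The Kupffer, endothelial and stellate gates held the markers they were named for. The endothelial list was at 15033 to 21988 CPM and the stellate list at 22116 to 35338 CPM in their own gates. In the Kupffer gate the Kupffer marker list (9 genes, among them Vsig4, Timd4 and C1qa) reached 22292 and 21568 CPM in CCl4 mice and 28748 and 26658 CPM in corn oil mice, where CPM is the UMI count scaled to a common total over the gate's cells. In the monocyte gate the monocyte marker list, 9 genes, was at 22695 and 26576 CPM in CCl4 mice and 20925 and 32490 CPM in corn oil mice, with the groups overlapping. Single markers of the corn oil cells went against the label. The Kupffer list in that gate was at 1441 and 1900 CPM in CCl4 mice, against 5529 and 8295 CPM in corn oil mice, higher in corn oil cells as were Marco, Cd36, Lpl and Fabp4 there, and its part in those results was not tested. Ly6c2, a surface marker of classical monocytes, had a UMI in 59.9% and 67.5% of the CCl4 cells of that gate, against 14.0% and 8.70% of the corn oil cells. Gata6 and Prg4, which were looked up after the values were seen, were at 15.7 and 23.4 CPM (Gata6) and 10.6 and 19.4 CPM (Prg4) in the CCl4 cells, against 239 and 155 CPM (Gata6) and 951 and 1729 CPM (Prg4) in the corn oil cells. A Gata6 UMI was in 37.2% and 39.1% of these corn oil cells and a Prg4 UMI in 23.3% and 39.1%, so most had none of Gata6 and most none of Prg4. In mice, GATA6 is the transcription factor of large peritoneal macrophages. Gata6 was also at 164 and 233 CPM in the stellate gate of CCl4 mice and at 169 and 125 CPM in that of corn oil mice. The stellate marker list in this gate was at 1240 and 685 CPM in CCl4 mice and at 9036 and 627 CPM in corn oil mice, high in corn oil 1 alone. The monocyte gate is therefore given throughout as a gate, and its results for the genes other than Gpihbp1 also in cells with a UMI of Ly6c2 or Ccr2, the chemokine receptor of classical monocytes, a choice made after seeing the data that left 851 and 1313 CCl4 cells and 22 and 10 corn oil cells. By the Ly6c2 shares above, most corn oil cells of this choice passed by Ccr2 alone, while most CCl4 cells had Ly6c2. The choice thus still compares unlike cells, and Cd5l, one of the Kupffer list, was still called lower in its CCl4 cells.

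The Kupffer gate held the most calls. UMIs were summed per mouse and gate and tested with edgeR's quasi-likelihood test, and a gene is called at a Benjamini-Hochberg adjusted p under 0.05 over all genes tested in the gate. In the Kupffer gate 6 of the 9 genes rose with CCl4 (Cd36, Marco, Msr1, Lpl, Fabp5 and Plin2), 1 fell (Gpihbp1) and 2 were not called (Fabp4 and Fabp7). Among all 9918 genes tested there, 7.55% were called higher and 7.79% lower, 15.3% in all. In the stellate gate 5 of the 7 genes tested were called higher, where 5.29% of all genes were called higher, 4.91% lower and 10.2% in either direction. In the endothelial gate 3 of 9 were called higher, where 2.85% of all genes were called higher, 2.57% lower and 5.42% in either direction. In the monocyte gate 4 of 9 were called lower and the other 5 were not called, where 2.4% of all genes were called higher, 3.06% lower and 5.47% in either direction. With 2 mice a group, edgeR's test leans on the spread it shares across genes.

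**Figure D1:**
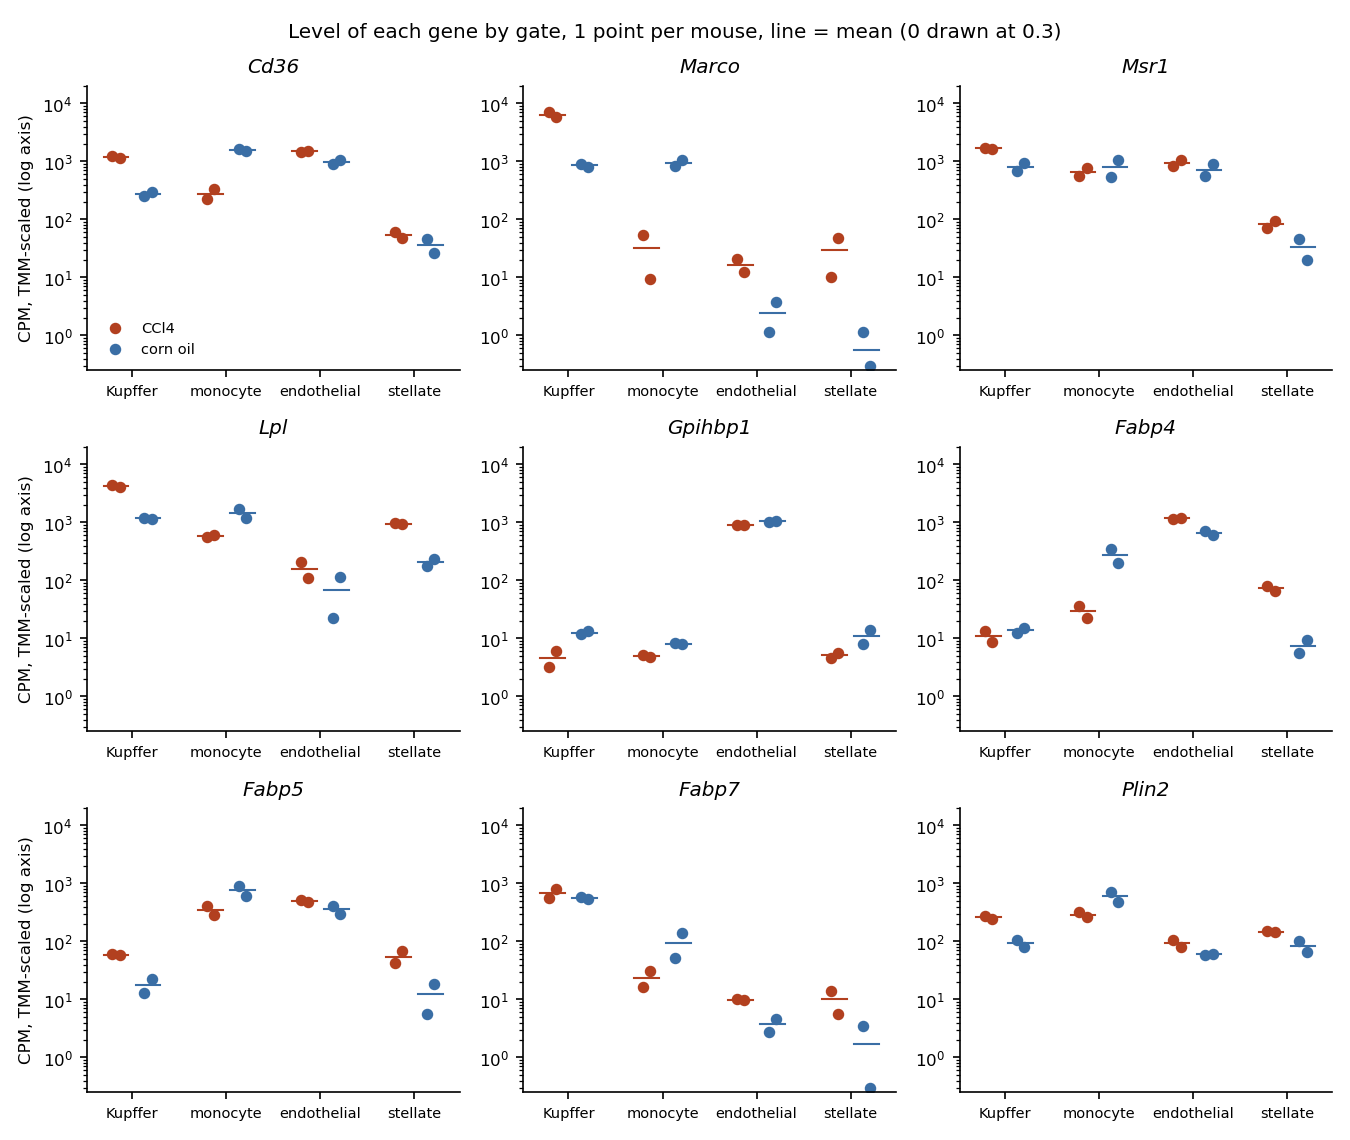
Level of each of the 9 genes in the 4 gates, as TMM-scaled CPM on a log axis, with CCl4 mice left of corn oil mice, 1 point per mouse and a line at the mean. In the Kupffer gate the CCl4 points lie above the corn oil points for Cd36, Marco, Msr1, Lpl, Fabp5 and Plin2. In the monocyte gate they lie below the corn oil points for all genes but Msr1, and of these Cd36, Marco, Lpl and Fabp4 were called.

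**Figure D2:**
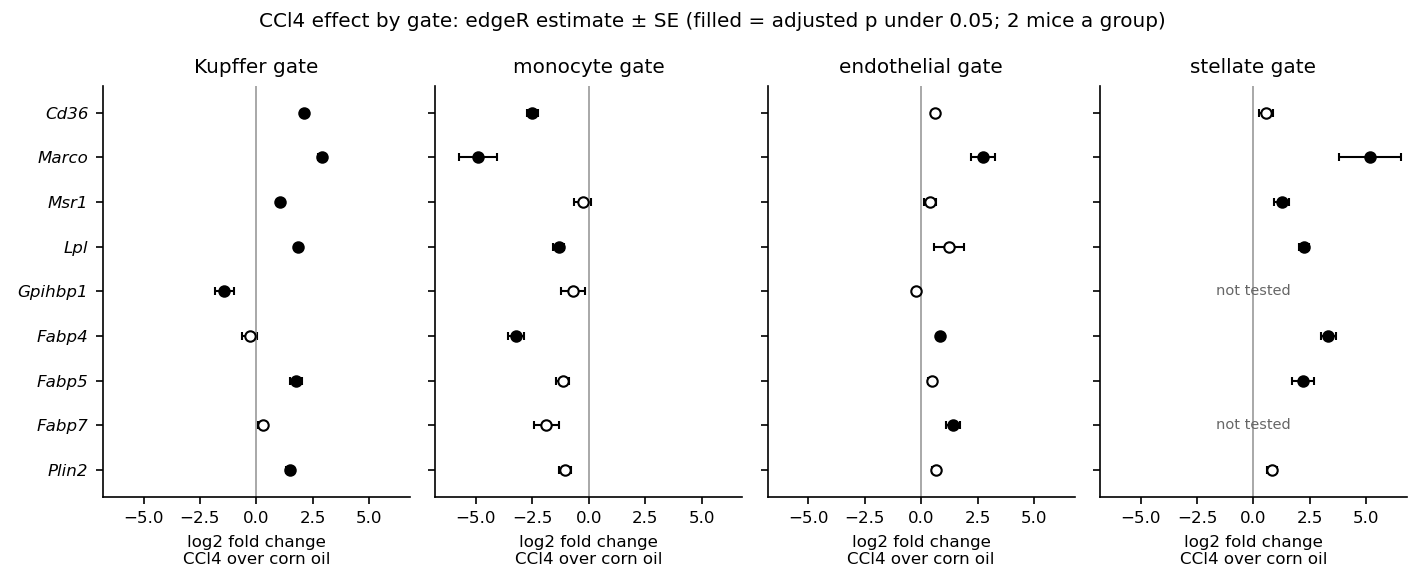
Log2 fold change of CCl4 over corn oil for each gene, by gate, as the edgeR estimate with its SE from 2 mice a group. Filled points passed an adjusted p under 0.05, Gpihbp1 and Fabp7 had too few counts in the stellate gate to be tested, and the stellate estimate of Marco rests on 1 corn oil UMI.

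Promoters are shown for the genes that rose together in the Kupffer gate, as far as the RefSeq table used here holds them. It held 4 of the 9 (Cd36, Marco, Fabp7 and Plin2). Marco (ENSMUSG00000026390.7, chr1:120474538-120505024, minus strand, GRCm38), Cd36 (ENSMUSG00000002944.15, chr5:17781690-17888801, minus strand) and Plin2 (ENSMUSG00000028494.12, chr4:86648386-86670060, minus strand) are protein-coding genes. Each window runs from 250 bases before the RefSeq start to 50 after it, read 5′ to 3′ on the gene's strand (GRCm38.p6): chr1:120504975-120505274 for Marco, chr5:17835847-17836146 for Cd36 and chr4:86670010-86670309 for Plin2. The Cd36 window lies inside the annotated span of the gene, at a start within it. Capitals mark matches to the motifs searched.
Marco: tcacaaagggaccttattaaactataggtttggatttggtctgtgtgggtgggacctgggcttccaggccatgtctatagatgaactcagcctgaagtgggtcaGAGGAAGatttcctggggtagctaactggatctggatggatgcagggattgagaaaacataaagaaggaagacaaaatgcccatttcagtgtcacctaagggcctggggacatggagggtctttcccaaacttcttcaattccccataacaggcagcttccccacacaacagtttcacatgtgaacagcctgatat
Cd36: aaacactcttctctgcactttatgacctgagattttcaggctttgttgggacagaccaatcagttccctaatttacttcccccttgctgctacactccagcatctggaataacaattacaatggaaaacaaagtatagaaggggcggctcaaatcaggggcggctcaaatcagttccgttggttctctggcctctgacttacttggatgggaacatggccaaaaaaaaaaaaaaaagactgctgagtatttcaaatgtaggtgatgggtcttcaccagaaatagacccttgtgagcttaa
Plin2: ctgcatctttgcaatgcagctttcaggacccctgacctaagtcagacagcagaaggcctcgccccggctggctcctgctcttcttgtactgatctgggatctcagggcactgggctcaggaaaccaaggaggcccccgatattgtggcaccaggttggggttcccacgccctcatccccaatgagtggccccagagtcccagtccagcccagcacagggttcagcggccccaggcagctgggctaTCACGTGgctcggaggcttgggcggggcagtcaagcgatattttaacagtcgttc
Both strands were searched for GAGGAAG (bound by PU.1, the macrophage lineage factor), TGANTCA (AP-1), CACGTGA (MITF and TFE factors), TATAAA (the TATA box) and the PPAR-RXR direct repeat, none of which overlapped another in these windows. The PU.1 letters occurred in the Marco window, beginning 146 bases before the start, and in 13.6% of the 32851 promoters searched. The letters CACGTGA occurred on the other strand of the Plin2 window, beginning 5 bases before the start, and in 3.77% of all promoters. None of the 5 motifs was found in the Cd36 window, nor in that of Fabp7, the gene of the 4 that was not called in the Kupffer gate. The other shares were 7.81% for TGANTCA, 13.6% for TATAAA and 0.0396% for the direct repeat.

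Among the scavenger receptors, Marco, a collagen-like receptor that binds bacteria and modified lipoproteins, differed most in Kupffer cells. Its level in the Kupffer gate was 7107 and 5794 CPM in CCl4 mice, against 918 and 799 CPM in corn oil mice, here and below after TMM scaling. The groups lay far apart, a 7.51-fold difference (log2 2.91 ± 0.19, SE; adjusted p = 9.66e-05, edgeR). More cells carried the transcript, and the median cell carried more of it. A Marco UMI was present in 89.5% and 88.0% of CCl4 Kupffer cells, against 65.9% and 56.8% of corn oil Kupffer cells. CCl4 Kupffer cells were more deeply sequenced, with a median of 13570.5 and 14622 UMIs, against 8689 and 7502 UMIs in corn oil mice. Thinned to 2000 UMIs per cell, with 4 shallower corn oil 2 cells left out, the shares were 88.2% and 82.2% in CCl4 mice and 53.5% and 42.2% in corn oil mice. Exact 95% binomial intervals of the thinned shares ran from 76.6% to 92.0% over both CCl4 mice and from 35.6% to 60.2% over both corn oil mice, and like all such intervals here they cover counting error only. The median cell had 60.7 and 54.0 Marco UMIs per 10000 in CCl4 mice, against 3.28 and 2.21 in corn oil mice.

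Marco was otherwise a trace transcript in the gates, apart from the corn oil cells of the monocyte gate. In the endothelial gate it was at 20.5 and 12.4 CPM in CCl4 mice and 1.14 and 3.83 CPM in corn oil mice (log2 2.74 ± 0.53, adjusted p = 0.0374), a call lost without CCl4 1 (adjusted p = 0.172) or CCl4 2 (adjusted p = 0.0604). All its UMIs there lay in at most 6.13% of the cells of any library, and the Kupffer marker list in the same gate was at 582 and 373 CPM in CCl4 mice, against 218 and 311 CPM in corn oil mice. Leaving out cells with any UMI of C1qa, C1qb, C1qc, Cd5l or Lyz2 left 1343 and 1390 CCl4 endothelial cells and 3605 and 3739 corn oil ones. The share of cells cut was thus larger in CCl4 mice. Among the cells left were 37 and 32 Marco UMIs in CCl4 endothelial cells and 9 and 12 in the more numerous corn oil cells, with a difference of about the same size (log2 2.69 ± 0.45, adjusted p = 0.0201). The stellate gate held 99 Marco UMIs in 606 CCl4 cells, against 1 UMI in 324 corn oil cells. That is a ratio of 29.8 in CPM, with a counting interval of 5.23 to 1190. The interval pools the mice and takes each UMI as independent, though 1 cell of CCl4 2 held 52 of the 99 UMIs. The edgeR test between mice gave log2 5.16 ± 1.37 (adjusted p = 0.0468). Without CCl4 2 the gene was too low to be tested in that gate. The Kupffer list in the stellate gate was at 673 and 664 CPM in CCl4 mice and 562 and 361 CPM in corn oil mice. After the cells with macrophage RNA were left out, Marco had 11 and 2 UMIs in CCl4 stellate cells and 0 in both corn oil mice, too few to be tested.

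Marco went the other way in the monocyte gate, at 54.9 and 9.5 CPM in CCl4 mice and 828 and 1079 CPM in corn oil mice (log2 -4.90 ± 0.83, adjusted p = 0.0332). The transcript sat in few cells, 18.6% and 26.1% of the 43 and 23 corn oil cells. Among cells with Ly6c2 or Ccr2, Marco had 50 and 71 UMIs in CCl4 mice and 5 and 0 in corn oil mice, and was not called (log2 -1.08 ± 0.85, adjusted p = 0.602).

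Cd36, a receptor for long-chain fatty acids and oxidised lipoproteins, rose in Kupffer cells to nearly the endothelial level. It was at 1247 and 1155 CPM in the Kupffer gate of CCl4 mice, against 255 and 294 CPM in corn oil mice (4.37-fold, log2 2.13 ± 0.16, adjusted p = 0.000215). Nearly every CCl4 Kupffer cell carried it, 99.6% and 97.8%, against 55.3% and 48.6% of corn oil Kupffer cells. At 2000 UMIs per cell the shares were 86.0% and 81.8% in CCl4 mice, against 24.9% and 28.4% in corn oil mice. The endothelial gate was at 1484 and 1513 CPM in CCl4 mice and 894 and 1056 CPM in corn oil mice, without overlap but short of the threshold (log2 0.62 ± 0.14, adjusted p = 0.0564). That outcome depends on the processing: endothelial Cd36 stayed short of the threshold in 7 of 17 alternatives, each of the 4 that leave out a library among them (adjusted p from 0.0510 to 0.218), and passed in the other 10, for instance at 2000 UMIs per cell (adjusted p = 0.0263) and with DESeq2 (adjusted p = 0.00200). The CCl4 effect on Cd36 was larger in the Kupffer gate than in the endothelial gate, by 1.56 ± 0.30 on the log2 scale (adjusted p = 0.0237 for the interaction, edgeR with library as a block). Such a difference was called for 2.52% of the 12629 genes in that fit. The call was lost without CCl4 1 (log2 1.5, adjusted p = 0.309) and without CCl4 2 (log2 1.64, adjusted p = 0.274).

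Cells of the monocyte gate carried less Cd36 after CCl4. They were at 228 and 331 CPM in CCl4 mice, against 1634 and 1537 CPM in corn oil mice (log2 -2.50 ± 0.25, adjusted p = 0.0118). Of the 4 genes called in that gate, Cd36 alone was still called among cells with Ly6c2 or Ccr2, with 181 and 315 CPM in CCl4 mice and 1178 and 1344 CPM in corn oil mice before TMM scaling (log2 -2.30 ± 0.25, adjusted p = 1.02e-04). The corn oil side of that comparison is 197 and 92 UMIs from 22 and 10 cells. With CCl4 1 or CCl4 2 left out, 0 genes of any kind were called in the monocyte gate by edgeR (711 and 697 at an unadjusted p under 0.05), and Cd36 had adjusted p = 0.121 and 0.106. In the stellate gate Cd36 was low, at 61.2 and 47.4 CPM in CCl4 mice and 46.8 and 26.7 CPM in corn oil mice, and was not called (log2 0.55 ± 0.30, adjusted p = 0.289), though it was without corn oil 1 (log2 1.04, adjusted p = 0.0490).

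Msr1, the class A macrophage scavenger receptor (ENSMUSG00000025044.16, chr8:39581685-39642673, minus strand), differed less. Kupffer cells were at 1736 and 1668 CPM in CCl4 mice, against 693 and 934 CPM in corn oil mice (2.09-fold, log2 1.07 ± 0.18, adjusted p = 0.00593). Endothelial cells carried it at like levels, 821 and 1074 CPM in CCl4 mice and 551 and 889 CPM in corn oil mice, with the groups overlapping (log2 0.40 ± 0.25, adjusted p = 0.395). The monocyte gate overlapped too, at 568 and 760 CPM in CCl4 mice and 539 and 1079 CPM in corn oil mice (log2 -0.27 ± 0.36, adjusted p = 0.678), and cells with Ly6c2 or Ccr2 gave 0.31 ± 0.22 (adjusted p = 0.559). In the stellate gate 1 cell held 39 of the 280 Msr1 UMIs of CCl4 1, and another 55 of the 115 of CCl4 2. The 71.4 and 93.9 CPM of CCl4 mice there lay above the 45.7 and 20.4 CPM of corn oil mice (log2 1.25 ± 0.33, adjusted p = 0.0470). That call was lost without any library but corn oil 1, and without the cells that carried macrophage RNA Msr1 was too low to be tested there, with 12 and 2 UMIs in CCl4 mice and 7 and 1 in corn oil mice.

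**Figure D3:**
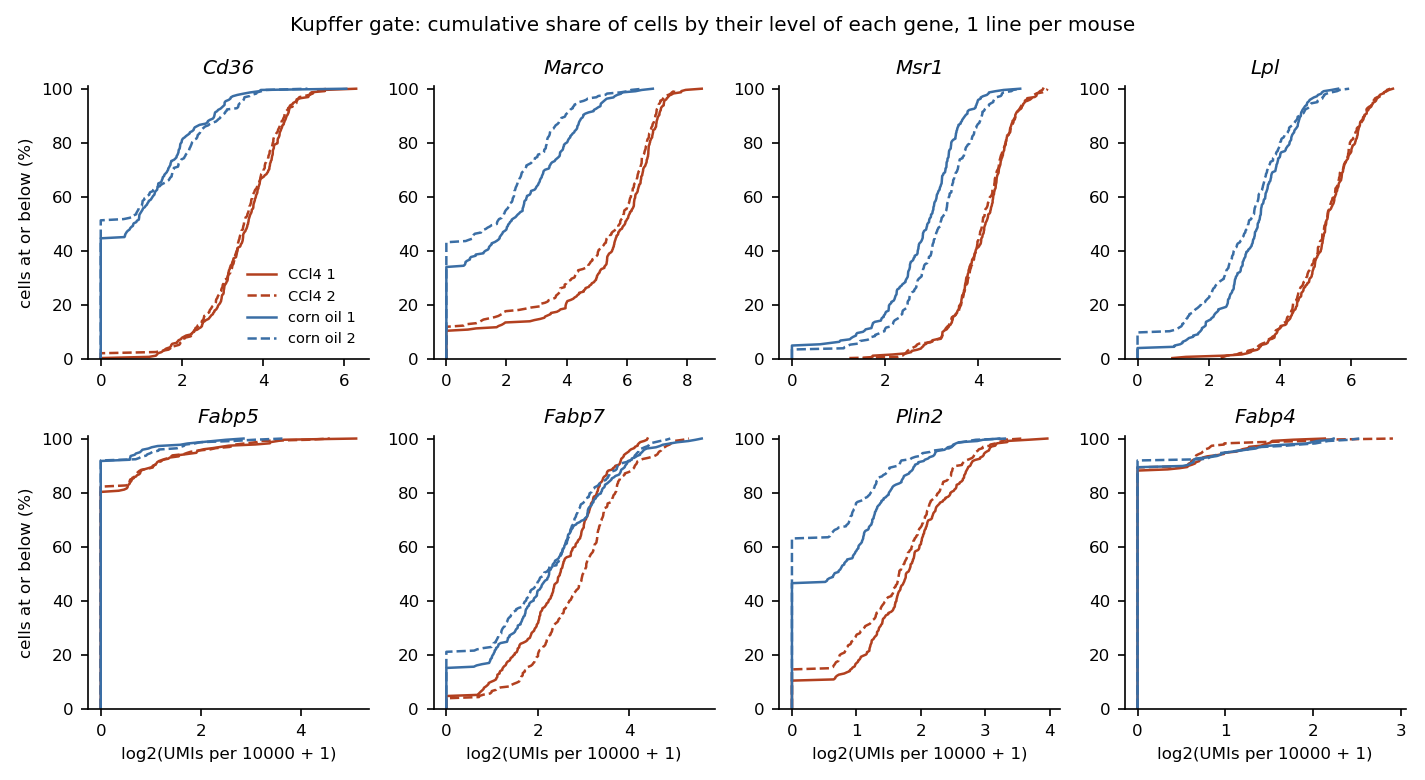
Kupffer gate cells ranked by their level of 8 of the genes: cumulative share of cells (y) at or below a level in log2(UMIs per 10000 UMIs + 1) (x), 1 line per mouse, CCl4 in red and corn oil in blue. The CCl4 lines of Cd36, Marco, Msr1, Lpl and Plin2 lie to the right along most of their length, those of Fabp4 run with the corn oil lines, that of Fabp7 lies to the right in CCl4 2 more than in CCl4 1, and the Fabp5 lines part among the few cells that carried it.

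Lipoprotein lipase rose in Kupffer cells and stellate cells, while its anchor stayed endothelial. Lpl (ENSMUSG00000015568.16, chr8:68880491-68907448, plus strand) was at 4387 and 4094 CPM in the Kupffer gate of CCl4 mice, against 1202 and 1142 CPM in corn oil mice. The difference was 3.62-fold with no overlap (log2 1.86 ± 0.16, adjusted p = 0.000434). The median Kupffer cell carried 38.4 and 37.9 Lpl UMIs per 10000 in CCl4 mice, against 9.41 and 7.68 in corn oil mice. Stellate cells rose as well, at 967 and 951 CPM in CCl4 mice, against 176 and 234 CPM in corn oil mice (4.70-fold, log2 2.23 ± 0.20, adjusted p = 0.000598). A Lpl UMI was found in 86.4% and 78.5% of CCl4 stellate cells, against 45.8% and 51.7% of corn oil stellate cells, and at 2000 UMIs per cell in 63.6% and 54.9% of the CCl4 cells, against 26.8% and 29.1% of the corn oil cells. The 10% of stellate cells with the most held 54.7% and 54.6% of the UMIs in CCl4 mice and 45.5% and 45.0% in corn oil mice. It was as large among stellate cells without macrophage RNA (log2 2.13 ± 0.19, adjusted p = 0.00134). The CCl4 effect on Lpl was not shown to differ between the Kupffer and stellate gates (log2 difference -0.43, adjusted p = 0.843).

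Endothelial Lpl depended on 1 corn oil library. It was at 208 and 113 CPM in CCl4 mice, against 22.1 and 114 CPM in corn oil mice, and was not called (log2 1.23 ± 0.68, adjusted p = 0.331). Without corn oil 2 the difference was 2.86 ± 0.36 on the log2 scale (adjusted p = 0.00207). In every library at least 96.1% of the endothelial Lpl UMIs lay in the 10% of cells with the most. Leaving out cells with macrophage RNA kept 1343 and 1390 CCl4 cells and 3605 and 3739 corn oil cells. The levels before TMM scaling were then 34.6 and 39.4 CPM in CCl4 mice, against 3.17 and 3.61 CPM in corn oil mice, and the gene was called (log2 3.39 ± 0.19, adjusted p = 0.000409). Lpl in the monocyte gate was at 559 and 614 CPM in CCl4 mice and 1734 and 1214 CPM in corn oil mice (log2 -1.33 ± 0.24, adjusted p = 0.0371), a call not made among cells with Ly6c2 or Ccr2 (log2 -0.49 ± 0.22, adjusted p = 0.363).

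Gpihbp1, the capillary anchor of lipoprotein lipase (ENSMUSG00000022579.10, chr15:75596628-75599481, plus strand), was an endothelial transcript in all 4 libraries. The endothelial gate held 85.1% and 91.5% of its UMIs among the kept cells of CCl4 mice, and 86.0% and 76.8% in corn oil mice, with nearly all others in cells of 2 gates. Its endothelial level was 910 and 909 CPM in CCl4 mice and 1032 and 1075 CPM in corn oil mice (log2 -0.21 ± 0.12, adjusted p = 0.363). The fall called in the Kupffer gate was between 10 and 20 UMIs in CCl4 mice and 27 and 23 in corn oil mice (log2 -1.43 ± 0.42, adjusted p = 0.0496). The endothelial marker list in that gate was at 533 and 568 CPM in CCl4 mice and 876 and 837 CPM in corn oil mice, and its part in the fall was not tested. The call was lost in 10 of 15 alternatives, each of the 4 that leave out a library among them (adjusted p from 0.0723 to 0.245).

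Fabp4, the binding protein of adipocytes, capillaries and some macrophages (ENSMUSG00000062515.3, chr3:10204088-10208576, minus strand), was chiefly endothelial. It rose there to 1147 and 1204 CPM in CCl4 mice, against 716 and 600 CPM in corn oil mice (1.79-fold, log2 0.84 ± 0.14, adjusted p = 0.0260). At 2000 UMIs per cell it was found in 74.0% and 79.5% of CCl4 endothelial cells, against 54.6% and 52.1% of corn oil endothelial cells. The call was lost without CCl4 1 (adjusted p = 0.109), CCl4 2 (adjusted p = 0.0884) or corn oil 2 (adjusted p = 0.0590). In Kupffer cells it was a trace, at 13.4 and 8.85 CPM in CCl4 mice and 12.6 and 14.9 CPM in corn oil mice, and was not called (log2 -0.30 ± 0.34, adjusted p = 0.590).

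Fabp4 rose most in the stellate gate, where it was nearly absent from corn oil mice. The sums were 309 and 82 UMIs in CCl4 mice, against 5 and 6 in corn oil mice, or 78.8 and 67.0 CPM against 5.71 and 9.42 CPM (log2 3.32 ± 0.34, adjusted p = 0.000974). It lay in 12.3% and 19.4% of CCl4 stellate cells, against 1.68% and 3.45% of corn oil stellate cells. In CCl4 1 a single cell held 93 of the 309 UMIs, while the highest cell of CCl4 2 held 8 of its 82. The CCl4 cells of the gate were deeper, with a median of 8074 and 7967 UMIs, against 4420 and 4237 UMIs in corn oil mice, and at 2000 UMIs per cell the shares were 6.06% and 8.33% in CCl4 mice, against 1.68% and 2.13% in corn oil mice. The endothelial marker list in the stellate gate was lower in CCl4 mice, at 220 and 191 CPM, than in corn oil mice, at 461 and 430 CPM. Without cells that carried macrophage RNA the difference was 3.04 ± 0.41 on the log2 scale (adjusted p = 0.00480), and without cells that carried hepatocyte RNA, which left 39 cells in CCl4 2, it was 2.27 ± 0.59 (adjusted p = 0.0676). The CCl4 effect on Fabp4 was higher in the stellate gate than in the endothelial gate by 2.54 ± 0.44 (adjusted p = 0.0181, called for 0.942% of genes). It was lower in the Kupffer gate than in the stellate gate by 3.65 on the log2 scale (log2 difference -3.65 ± 0.50, adjusted p = 0.00796, called for 0.784%). Both calls were lost without CCl4 1 (adjusted p = 0.199 and 0.0887) and without CCl4 2 (adjusted p = 0.13 and 0.127), and the first without corn oil 1 also (adjusted p = 0.140).

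Fabp4 in the monocyte gate was at 36.4 and 23.0 CPM in CCl4 mice and 344 and 203 CPM in corn oil mice (log2 -3.24 ± 0.35, adjusted p = 0.0135). Nearly all the corn oil UMIs were in cells with neither Ly6c2 nor Ccr2. Cells with either had 136 and 130 Fabp4 UMIs in CCl4 mice and 2 and 2 in corn oil mice (log2 0.38 ± 0.78, adjusted p = 0.889).

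Fabp5, the epidermal type (ENSMUSG00000027533.10, chr3:10012548-10016607, plus strand), was highest in the endothelial and monocyte gates and low in Kupffer cells. Endothelial levels were 511 and 484 CPM in CCl4 mice and 414 and 300 CPM in corn oil mice (log2 0.48 ± 0.17, adjusted p = 0.16), and passed without corn oil 1 (log2 0.73, adjusted p = 0.0444). Kupffer cells were at 60.3 and 57.7 CPM in CCl4 mice, against 13 and 23.0 CPM in corn oil mice (3.33-fold, log2 1.74 ± 0.26, adjusted p = 0.00398). Few cells carried the change: the 10% of CCl4 Kupffer cells with the most held 88.4% and 91.0% of the UMIs. The call depended on which cells counted as Kupffer cells. With cells of 2 gates kept, 477 and 332 CCl4 cells and 636 and 869 corn oil cells, Fabp5 was at 150 and 101.4 CPM in CCl4 mice and 127 and 129 CPM in corn oil mice (log2 -0.06 ± 0.21, adjusted p = 0.883). Thinned to 2000 UMIs per cell it missed the threshold (log2 1.16, adjusted p = 0.0751). In the stellate gate Fabp5 rose to 41.8 and 67.8 CPM in CCl4 mice, against 5.71 and 18.8 CPM in corn oil mice (log2 2.21 ± 0.48, adjusted p = 0.0229), all within at most 12.5% of the cells. There 1 cell held 31 of the 164 UMIs of CCl4 1, and another 37 of the 83 of CCl4 2. The call was lost without CCl4 1 (adjusted p = 0.118) or CCl4 2 (adjusted p = 0.183). The monocyte gate was at 408 and 285 CPM in CCl4 mice and 923 and 605 CPM in corn oil mice (log2 -1.15 ± 0.29, adjusted p = 0.0891), and passed without corn oil 2 (adjusted p = 0.0152). Among cells with Ly6c2 or Ccr2 its sign was the other way (log2 0.60 ± 0.33, adjusted p = 0.457). A processed pseudogene, Fabp5l2, is annotated for this gene, so part of its reads could have been assigned or lost between the copies.

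Fabp7, the brain type (ENSMUSG00000019874.11, chr10:57784881-57788450, plus strand), was highest in Kupffer cells and was not called there. It was at 554 and 804 CPM in the Kupffer gate of CCl4 mice and 575 and 546 CPM in corn oil mice, with the groups overlapping (log2 0.28 ± 0.19, adjusted p = 0.346). In the endothelial gate it was called, between 10.1 and 9.85 CPM in CCl4 mice and 2.79 and 4.68 CPM in corn oil mice (log2 1.42 ± 0.30, adjusted p = 0.0460), where at most 3.50% of cells carried it. That call was lost without CCl4 1 (adjusted p = 0.182), CCl4 2 (adjusted p = 0.112) or corn oil 1 (adjusted p = 0.0623). Without cells that carried macrophage RNA only 12 and 8 endothelial UMIs were left in CCl4 mice and 7 and 10 in corn oil mice (log2 1.21 ± 0.58, adjusted p = 0.287). The stellate gate held 56 and 7 UMIs in CCl4 mice and 3 and 0 in corn oil mice, too few to be tested. The monocyte gate was at 16.5 and 30.6 CPM in CCl4 mice and 51.5 and 139 CPM in corn oil mice (log2 -1.87 ± 0.54, adjusted p = 0.112), and passed without corn oil 1 (adjusted p = 0.0377). Among cells with Ly6c2 or Ccr2 the difference was -1.09 ± 0.58 (adjusted p = 0.445).

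Plin2, which coats lipid droplets and rises with the lipid a cell stores, was found in every gate. In Kupffer cells it rose to 279 and 244 CPM in CCl4 mice, against 108 and 79.8 CPM in corn oil mice (2.77-fold, log2 1.47 ± 0.18, adjusted p = 0.00175). A Plin2 UMI was present in 43.4% and 38.7% of CCl4 Kupffer cells at 2000 UMIs per cell, against 17.1% and 14.7% of corn oil Kupffer cells. The other gates did not pass the test. Endothelial cells were at 106 and 79.8 CPM in CCl4 mice and 59.0 and 60.4 CPM in corn oil mice (log2 0.64 ± 0.17, adjusted p = 0.0773), and stellate cells at 154 and 143 CPM in CCl4 mice and 102 and 66.0 CPM in corn oil mice (log2 0.81 ± 0.23, adjusted p = 0.0596). Stellate Plin2 passed without corn oil 1 (log2 1.17, adjusted p = 0.00387). Cells of the monocyte gate were at 316 and 264 CPM in CCl4 mice and 725 and 474 CPM in corn oil mice (log2 -1.06 ± 0.26, adjusted p = 0.0831), and it passed without corn oil 2 (adjusted p = 0.00770). Among cells with Ly6c2 or Ccr2 the difference was -0.94 ± 0.25 (adjusted p = 0.0607).

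**Figure D4:**
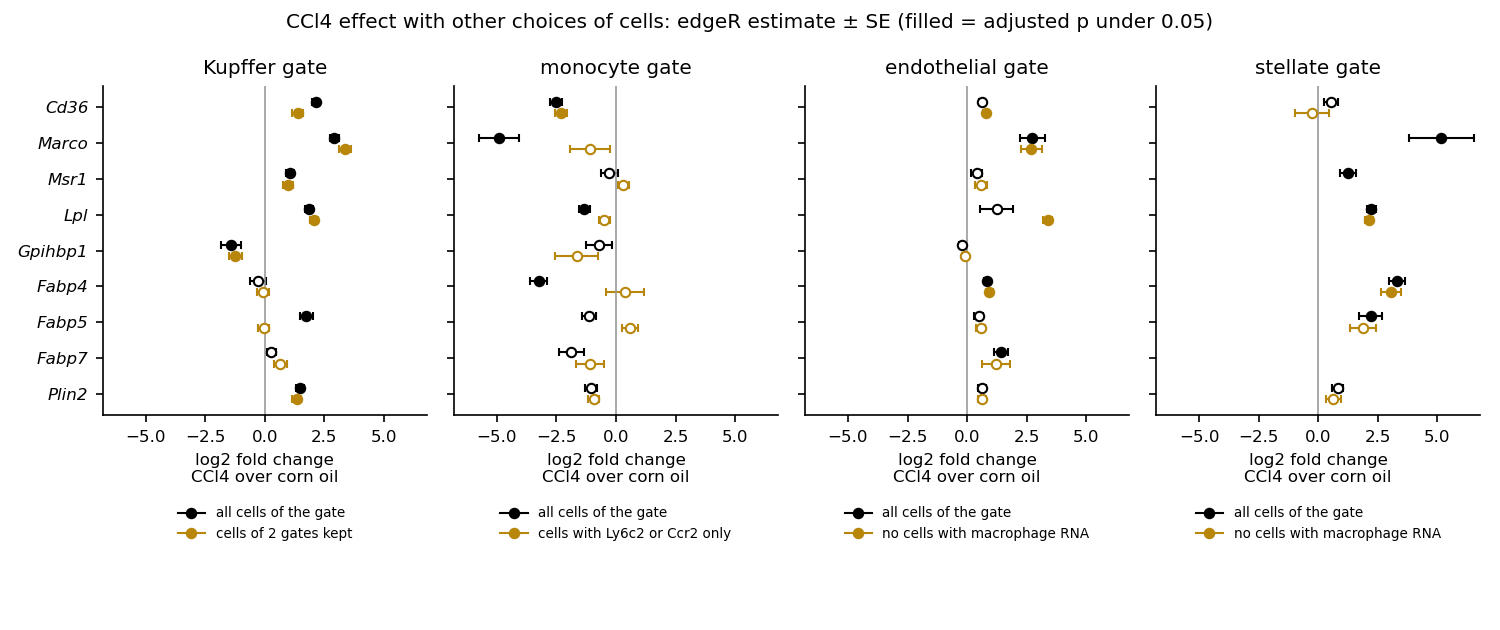
Log2 fold change of CCl4 over corn oil (edgeR estimate ± SE, 2 mice a group, filled where adjusted p is under 0.05) for all cells of each gate (black) and with another choice of cells (gold): Kupffer cells with cells of 2 gates kept, monocyte gate cells with a UMI of Ly6c2 or Ccr2, and endothelial and stellate cells without macrophage RNA. Fabp5 in Kupffer cells and Fabp4 in the monocyte gate move to near 0, and endothelial Lpl becomes a call.

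The Kupffer calls for Cd36, Marco, Msr1, Lpl and Plin2 held under all 16 alternatives run for that gate, which include leaving out each library, keeping cells of 2 gates and thinning. Their log2 fold changes ranged from 1.38 to 2.59 for Cd36, 2.76 to 3.35 for Marco, 0.89 to 1.30 for Msr1, 1.79 to 2.05 for Lpl and 1.28 to 1.73 for Plin2. Clec4f, the gate gene, was itself at 2048 and 2623 CPM in the CCl4 cells of the gate and 5698 and 4710 CPM in the corn oil cells. The same threshold thus took cells from a different part of its range, and the effect of that on the 9 genes was not tested. Gates at 2 times the thresholds cannot test it, since all gates were then doubled, which also changed which cells passed 2 gates. The Kupffer gate then held 200 and 208 CCl4 cells and 242 and 248 corn oil cells, more corn oil cells than before. Gate genes differed between the groups in other gates too. In the stellate gate Reln was at 1795 and 1399 CPM in CCl4 mice and 4475 and 4675 CPM in corn oil mice. Endothelial Kdr was at 2428 and 2461 CPM in CCl4 mice and 4109 and 5153 CPM in corn oil mice. Colec11 and Ptprb were lower in CCl4 mice too, Lrat and Egfl7 overlapped, and the monocyte gate genes were higher.

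Most Marco and Fabp7 UMIs of corn oil mice lay outside the gates, in the dropped cells of 2 gates. Those cells held 50.4% and 29.2% of the Marco UMIs of CCl4 mice and 61.3% and 63.2% of those of corn oil mice. For Fabp7 the shares were 46.8% and 26.2% in CCl4 mice and 67.9% and 73.4% in corn oil mice. The Kupffer gate, 3.06% to 4.0% of kept cells, held 46.6% and 67.5% of the Marco UMIs of CCl4 mice and 30.3% and 21.9% in corn oil mice. Cd36, Msr1, Gpihbp1, Fabp4 and Fabp5 had their largest share in the endothelial gate in all 4 libraries, between 47.6% and 91.5%.

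**Figure D5:**
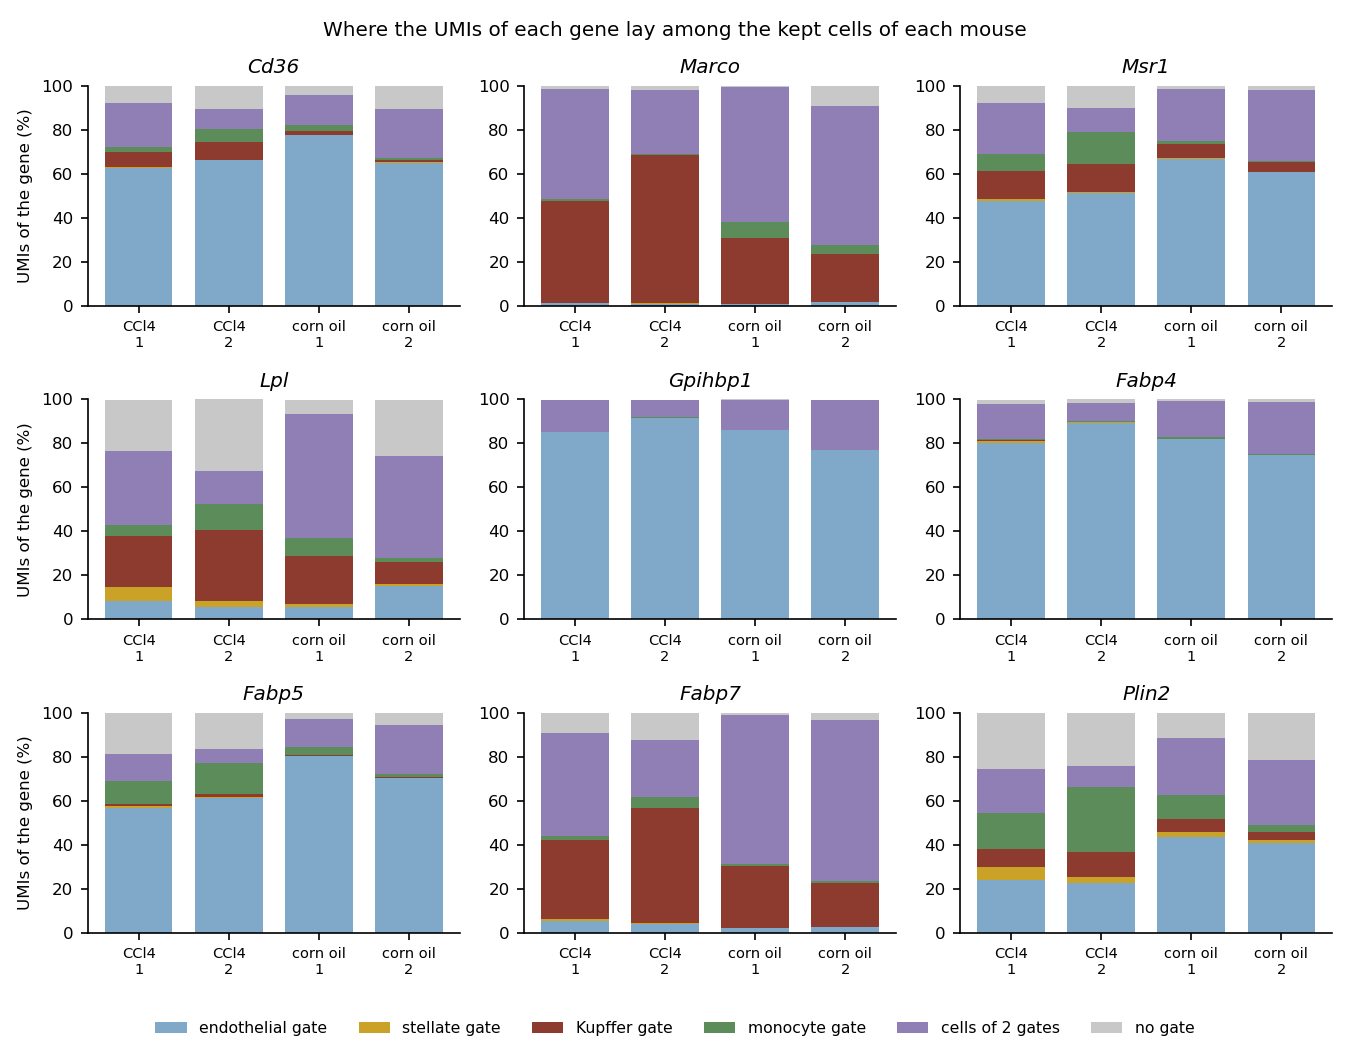
Share of each gene's UMIs (y, percent) among the kept cells of each mouse that lay in the 4 gates, in cells of 2 gates and in cells of no gate, with CCl4 mice left of corn oil mice. Gpihbp1 and Fabp4 lie mostly in the endothelial gate, and Marco and Fabp7 lie in the Kupffer gate and in cells of 2 gates.

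Cells of no gate also carried these genes, and were grouped by the marker list with the highest level in each cell. Those led by the Kupffer list, which lacked the 5 Clec4f UMIs of the gate, numbered 175 and 173 in CCl4 mice and 50 and 26 in corn oil mice. Lpl in them was at 6227 and 5800 CPM in CCl4 mice, against 378 and 1444 CPM in corn oil mice, before TMM scaling. Fabp5 was at 942 and 873 CPM in CCl4 mice and 32.2 and 56.5 CPM in corn oil mice, above its level in the Kupffer gate of both CCl4 mice. Cells led by the conventional dendritic cell list, 67 and 28 in CCl4 mice and 18 and 16 in corn oil mice, held Fabp5 at 2157 and 1417 CPM in CCl4 mice and 136 and 67.2 CPM in corn oil mice. Lpl in the cells led by the monocyte list was at 1212 and 1030 CPM in CCl4 mice and 811 and 4518 CPM in corn oil mice, with corn oil 2 far above the others. These groups were not tested.

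Within each group most comparisons of a gene between 2 gates were called, and the sizes of these differences were not tested against the CCl4 effects. In the joint fit over the 16 sums, 40 of 54 comparisons of a gene between 2 gates were called in CCl4 mice and 40 of 54 in corn oil mice. Of all genes, Kupffer over endothelial was called for 53.9% in CCl4 mice and 47.5% in corn oil mice, stellate over endothelial for 42.3% in CCl4 and 36% in corn oil mice, monocyte over endothelial for 55.7% in CCl4 and 39.7% in corn oil mice, Kupffer over stellate for 48.9% in CCl4 and 41.1% in corn oil mice, monocyte over stellate for 53.8% in CCl4 and 30.2% in corn oil mice, and monocyte over Kupffer for 33.4% in CCl4 and 23.6% in corn oil mice. Marco stood highest in the Kupffer gate of CCl4 mice, above the endothelial gate by 8.75 on the log2 scale, and its monocyte, stellate and endothelial levels were not shown to differ (adjusted p from 0.270 to 0.781). In corn oil mice Marco was not shown to differ between the monocyte and Kupffer gates (log2 difference 0.03, adjusted p = 0.998). Cd36 in CCl4 mice was not shown to differ between the Kupffer and endothelial gates (log2 -0.22, adjusted p = 0.416), while in corn oil mice it was lower in the Kupffer gate (log2 -1.78). Msr1 in CCl4 mice was highest in the Kupffer gate and lowest in the stellate gate, with the endothelial and monocyte gates between them not shown to differ (log2 -0.45 for monocyte over endothelial, adjusted p = 0.184), and in corn oil mice those 3 gates other than stellate were not shown to differ. Lpl in CCl4 mice ran from Kupffer through stellate and monocyte to endothelial, with stellate and monocyte not shown to differ (log2 -0.58 for monocyte over stellate, adjusted p = 0.326). In corn oil mice the Kupffer and monocyte gates led Lpl without a called difference between them (log2 0.29 for monocyte over Kupffer, adjusted p = 0.722). Gpihbp1 was higher in the endothelial gate than in each other gate in both groups, and the other 3 gates were not shown to differ. Fabp4 ran from endothelial through stellate and monocyte to Kupffer in CCl4 mice, each step called. Fabp5 in CCl4 mice was not shown to differ between monocyte and endothelial gates (log2 -0.46, adjusted p = 0.177), nor between Kupffer and stellate gates (log2 0.33, adjusted p = 0.427). Fabp7 was highest in the Kupffer gate in both groups, above the endothelial gate by 6.16 in CCl4 mice and 7.33 in corn oil mice on the log2 scale. Plin2 in CCl4 mice was not shown to differ between the monocyte and Kupffer gates (log2 0.11, adjusted p = 0.618).

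Other genes of lipid handling were called in both directions in Kupffer cells. Over 9 lists of such genes, the 9 genes aside, 6 of 82 tested were called higher (7.32%, against 7.55% of all genes) and 13 lower (15.9%, against 7.79%). The share called higher is thus near the background. The share called lower was 6.10% without CCl4 1 (against 3.54% of all genes in the same fit), 4.88% without CCl4 2 (against 2.49%) and 9.64% without corn oil 1 (against 6.64%). The named genes are the 6 of these with the largest change. Colec12, a scavenger receptor related to Msr1, rose to 146 and 125 CPM in CCl4 mice, against 23.4 and 26.4 CPM in corn oil mice (log2 2.45 ± 0.19). Sorl1, a sorting receptor, rose to 21.7 and 19.8 CPM in CCl4 mice, against 4.5 and 5.17 CPM in corn oil mice (log2 2.10 ± 0.33). Both Pnpla2 and Mgll fell. Pnpla2, the first lipase of triglyceride breakdown, was at 56.2 and 57.0 CPM in CCl4 mice and 296 and 212 CPM in corn oil mice (log2 -2.17 ± 0.19), and Mgll, monoglyceride lipase, at 3.83 and 0.92 CPM in CCl4 mice and 10.8 and 18.4 CPM in corn oil mice (log2 -2.59 ± 0.58). Fabp1, the liver type, was at 2.87 and 3.36 CPM in CCl4 mice and 13.5 and 25.8 CPM in corn oil mice (log2 -2.62 ± 0.44), and the hepatocyte marker list in that gate at 120 and 247 CPM in CCl4 mice and 118 and 275 CPM in corn oil mice. Slc27a6, a fatty acid transporter, had 1 UMI in the CCl4 mice together, at 0 and 0.31 CPM, against 4.95 and 6.32 CPM in corn oil mice, and counts among the genes called lower. The call for Mgll was lost without CCl4 2 (adjusted p = 0.0830) or corn oil 2 (adjusted p = 0.0598), and that for Slc27a6 without CCl4 1 (adjusted p = 0.108) or CCl4 2 (adjusted p = 0.0719).

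By list, the scavenger receptors had 4 genes higher in the Kupffer gate (Cd36, Marco, Msr1 and Colec12) and 4 lower (Cd163, Mrc1, Scarb2 and Stab2) of 13 tested, with a median log2 fold change of 0.14, against -0.01 over all genes tested. Droplet and triglyceride genes had 3 higher (Plin2, Plin3 and Hilpda) and 3 lower (Pnpla2, Mgll and Hsd17b11) of 14, with a median of -0.27. Of the nuclear receptors and partners Pparg rose (log2 1.53 ± 0.21) and Rxra fell, of 10 tested, with a median of -0.08. Fatty acid oxidation genes had 0 of 18 called by edgeR (2 at an unadjusted p under 0.05, and 0 called by DESeq2), with a median of 0.12. The FABP family had Fabp5 higher and Fabp1 lower of 4 tested (median -0.01), the lipase system Lpl higher and Gpihbp1 and Apoc1 lower of 10 (median 0.03), and lipoprotein receptors Sorl1 higher and Mylip lower of 7 (median -0.13). Fatty acid transport and activation had Slc27a6 lower of 8 (median 0.37), and lysosomal lipid release Scarb2 and Pla2g15 lower of 8 (median 0.06).

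In endothelial cells 4 of 105 list genes other than the 9 were called higher (3.81%, against 2.85% of all genes) and 6 lower (5.71%, against 2.57%). In stellate cells 3 of 79 were called higher (3.80%, against 5.29%) and 8 lower (10.1%, against 4.91%). The monocyte gate had 2 of 88 higher (2.27%, against 2.4%) and 6 lower (6.82%, against 3.06%). These counts moved with single libraries. Without CCl4 1 or CCl4 2, fewer list genes were called lower by edgeR in each of these gates, as were fewer of all genes tested. Without corn oil 2, more list genes were called lower in the monocyte gate, as were more of all genes. More list genes were then called higher in endothelial and stellate cells, where the share of all genes called higher changed little. Each of these fits has 1 mouse in a group, so the counts are not set against the background. DESeq2 was not run on these subsets. Endothelial Pparg, a nuclear receptor that induces Cd36 and Fabp4, rose to 32.6 and 24.0 CPM in CCl4 mice, against 8.40 and 6.16 CPM in corn oil mice (log2 1.96 ± 0.23). Endothelial Nr1h3 (log2 1.26 ± 0.26), which encodes the oxysterol receptor LXRα, was called as well, a call lost whichever library was left out (adjusted p from 0.0503 to 0.217) and without macrophage RNA (adjusted p = 0.404). Endothelial Mylip, which encodes a ubiquitin ligase, fell (log2 -1.25 ± 0.14), as did Fabp1 (log2 -1.50 ± 0.19) and the lysosomal receptor Scarb2 (log2 -1.15 ± 0.13). In stellate cells Angptl4, an inhibitor of lipoprotein lipase, was at 30.6 and 22.9 CPM in CCl4 mice and 0 and 6.28 CPM in corn oil mice (log2 3.31 ± 0.74). Stellate Colec12 (log2 1.98 ± 0.44) and Cd5l (log2 2.95 ± 0.68), a protein secreted by macrophages and one of the Kupffer markers, were called higher too. None of these 3 was called among stellate cells without macrophage RNA, where Angptl4 had a log2 difference of 3.11 (adjusted p = 0.0534) and Colec12 of 1.39 (adjusted p = 0.0809), and Cd5l, by which cells were left out, was not tested. Without CCl4 2 neither Angptl4 (adjusted p = 0.136) nor Colec12 (adjusted p = 0.134) was called, and without CCl4 1 neither Angptl4 (adjusted p = 0.324) nor Cd5l (adjusted p = 0.394). Stellate Lpin1 (log2 -2.06 ± 0.41), Pcsk6 (log2 -2.08 ± 0.53) and Mylip (log2 -1.78 ± 0.24) were lower, with and without macrophage RNA. Each of these 3 was lost without CCl4 1 (adjusted p from 0.111 to 0.394), Lpin1 also without CCl4 2 (adjusted p = 0.141), and Pcsk6 whichever library was left out. In the monocyte gate Sorl1 (log2 2.38 ± 0.25) and Pparg (log2 1.72 ± 0.31) were higher, and Cd5l (log2 -5.97 ± 0.66), the oxidised lipoprotein receptor Olr1 (log2 -3.07 ± 0.38), the droplet protein gene Hilpda (log2 -2.93 ± 0.29) and the sorting receptor Sort1 (log2 -1.97 ± 0.39) lower, against the corn oil cells described above. Among cells with Ly6c2 or Ccr2 neither Sorl1 (log2 0.96, adjusted p = 0.0949) nor Pparg (log2 1.07, adjusted p = 0.446) nor Sort1 (log2 -1.27, adjusted p = 0.125) was called, while Cd5l (log2 -3.59), Olr1 (log2 -3.03) and Hilpda (log2 -1.89) still were. In the whole gate all 6 calls were lost without CCl4 1 or CCl4 2 (adjusted p from 0.0791 to 0.458).

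Over the 16 sums of a mouse and a gate, the 9 genes fell into few patterns by Pearson correlation of log2(CPM + 1), given as a description since sums of 1 mouse share a library and sums of 1 gate share a cell type. Marco and Fabp7 were most alike (r = 0.93), then Cd36 and Msr1 (r = 0.89) and Marco and Lpl (r = 0.85), while Lpl and Gpihbp1 ran most opposite (r = -0.78). Among all 10522 genes compared, those most like Marco were Txn1, Slamf9 and Cd5l (r = 0.96, 0.95 and 0.94), and those most like Fabp7 were C1qa, Tecpr2 and Cox5a (r = 0.97, 0.97 and 0.96). Gpihbp1 was followed most closely by F8, Adgrf5 and Flt4 (r = 0.99 each), of which Flt4 is an endothelial receptor. Most like Cd36 were Rab11a, Mcm3 and Msr1 (r = 0.93, 0.91 and 0.89), like Msr1 were Atp1b3, Me2 and Tpm3 (r = 0.96 each), and like Lpl were Ms4a7, 2610524H06Rik and Abhd11 (r = 0.93 each). For Fabp4 they were Knop1, Hdc and Lama4 (r = 0.95, 0.95 and 0.94), for Fabp5 Itgb1bp1 and Abhd5 (r = 0.96 and 0.93), and for Plin2 the ribosomal protein genes Rpl32 and Rps26 (r = 0.95 each).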

How the data were processed

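Single cells of 2 CCl4 and 2 corn oil livers were captured on BD Rhapsody, a microwell system, and the authors deposited 1 table of counts per library, in molecules (UMIs) per cell and gene. Per the file headers the tables came from Rhapsody analysis pipeline 1.9.1 with GRCm38 and GENCODE vM19, and that of CCl4 1 from a run of its own. A cell was kept if it had 200 or more genes and no more than 25% mitochondrial UMIs. No doublet caller was run, and cells in 2 gates were dropped. UMIs were summed per library and gate. Each gate was fitted with edgeR 4.0.16 (TMM scaling, its filter on low counts, quasi-likelihood test, Benjamini-Hochberg adjustment over all genes tested), and the 16 sums jointly, with library as a block, for differences between gates. DESeq2 1.42.0 was an alternative, and the steps were tested on simulated counts. P-values measure the spread between these mice. Exact binomial and Poisson intervals have a confidence of 95%.

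The 9 genes, the gene lists and the tests were chosen with earlier results of these data known. Genes named beside the 9 are, per gate, the 6 called list genes with the largest change, and for each of the 9 the 3 genes most alike over the 16 sums among those with at least 10 CPM in 2 sums. A few genes that these rules or the lists name are not reported here. Cells with Ly6c2 or Ccr2, Kupffer cells with cells of 2 gates kept, and cells without hepatocyte or macrophage RNA were chosen after seeing the data. Gene spans are from GENCODE vM21 and promoters from RefSeq, both on GRCm38.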

Additional observations from a re-analysis of the deposited data

Results flagged for a closer look

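The CCl4 effect on a gene was compared between gates for 54 pairs, and 25 differed by the test of the difference itself (edgeR interaction, adjusted p under 0.05 over 12629 genes). Among the 27 pairs without the monocyte gate there were 3. Of all genes, 2.52% were called for Kupffer over endothelial, 0.942% for stellate over endothelial and 0.784% for Kupffer over stellate. With no filter on low counts there were 12 of the 27 (35 of all 54), with clean gates 5, and with the gates at 2 times the thresholds 2. For these other settings the share of all genes was not taken. The effect on Cd36 was higher in the Kupffer gate than in the endothelial gate by 1.56 on the log2 scale. The effect on Fabp4 was higher in the stellate gate than in the endothelial gate by 2.54, and the log2 difference of the Kupffer gate over the stellate gate was -3.65. Leaving out CCl4 1 or CCl4 2 ended all 3 calls.

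The other 22 set the monocyte gate below another gate. Its corn oil cells were higher in Gata6 and Prg4, each found in a minority of them, and fewer had a Ly6c2 UMI. The part of that makeup in these differences was not tested. Over the endothelial gate the log2 differences were -3.04 for Cd36, -4.01 for Fabp4, -1.55 for Fabp5, -3.23 for Fabp7, -2.66 for Lpl, -7.73 for Marco and -1.57 for Plin2. Over the stellate gate they were -3.05 for Cd36, -6.54 for Fabp4, -3.33 for Fabp5, -4.44 for Fabp7, -3.61 for Lpl, -10.24 for Marco and -1.84 for Plin2. Stellate Marco and Fabp7 were at 0 UMIs in corn oil 2, so the sizes for these genes depend on the fit. Over the Kupffer gate the log2 differences were -4.60 for Cd36, -2.90 for Fabp4, -2.85 for Fabp5, -2.05 for Fabp7, -3.17 for Lpl, -7.87 for Marco, -1.28 for Msr1 and -2.49 for Plin2. Leaving out 1 library ended 11 of these 22 calls: Fabp5, Fabp7, Lpl and Plin2 over the endothelial gate (highest adjusted p 0.266, 0.0569, 0.266 and 0.0695), Fabp5, Fabp7 and Lpl over the stellate gate (0.0655, 0.274 and 0.0814), and Fabp5, Fabp7, Lpl and Msr1 over the Kupffer gate (0.0563, 0.218, 0.104 and 0.389). The log2 difference then ran from -4.18 to -1.44 for Lpl over the endothelial gate and from -12.14 to -2.87 for Fabp7 over the stellate gate. Msr1 was thus flagged against the Kupffer gate alone, and Gpihbp1 was not flagged. Between 11.8% and 14.2% of all genes were called in each of these pairs of gates.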

How the results depend on the processing

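In the Kupffer gate the count of the 9 genes called, 7, stayed between 5 and 7 over 16 alternatives, while all genes called, 1522, came to 873 with DESeq2, 2321 with no filter on low counts and 624 with cells thinned. In the endothelial gate 726 genes became 1482 (DESeq2), 2302 (no filter) and 2051 (replicate block), and the 3 of the 9 became 5 (library size only), 5 (DESeq2), 7 (no filter), 6 (replicate block) and 1 (clean gates, with at most 1 UMI of another gate's genes). In the stellate gate 916 genes became 609 (DESeq2), 1577 (no filter), 584 (thinned) and 448 (no hepatocyte RNA), and the 5 of the 9 became 3 (at most 15% mitochondrial UMIs), 3 (gates at 2 times the thresholds), 2 (without the 5% of cells with most UMIs), 2 (thinned), 1 (no hepatocyte RNA) and 2 (no macrophage RNA). In the monocyte gate 557 genes became 903 (DESeq2), 2061 (no filter), 330 (thinned) and 204 (Ly6c2 or Ccr2), and the 4 of the 9 became 7 (DESeq2), 7 (no filter) and 1 (Ly6c2 or Ccr2). Leaving out 1 library gave 585 to 1464 genes in the Kupffer gate (6 of the 9 each time), 183 to 894 in the endothelial gate (0 to 3), 107 to 1345 in the stellate gate (2 to 8) and 0 to 1658 in the monocyte gate (0 to 6), 13 to 26 interactions, 35 to 43 gate differences in CCl4 mice and 37 to 41 in corn oil mice. The lone mouse left is then assumed to vary like the other group. List genes called ranged from 14 to 29 in the Kupffer gate, 4 to 30 in the endothelial gate, 4 to 27 in the stellate gate and 0 to 36 in the monocyte gate. The cause of these shifts was not tested.

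Directions turned for stellate Cd36 without macrophage RNA (log2 -0.27), Kupffer Fabp4 with clean gates (0.39) and without hepatocyte RNA (0.20), Kupffer Fabp5 with cells of 2 gates kept (-0.056), and, among cells with Ly6c2 or Ccr2, Msr1 (0.31), Fabp4 (0.38) and Fabp5 (0.60). Leaving out 1 library gave -0.0089 to 0.53 for Kupffer Fabp7, below 0 without CCl4 2, and -0.71 to 0.35 for monocyte gate Msr1, above 0 without corn oil 2. Same-numbered libraries shared only a number: their deviations correlated at 0.150 in the endothelial gate, -0.003 in the stellate gate, 0.096 in the Kupffer gate and 0.18 in the monocyte gate. With the replicate block the calls were 1893 (7 of the 9) in the Kupffer gate, 973 (5) in the stellate gate and 374 (6) in the monocyte gate. With 43 and 23 corn oil cells in the monocyte gate and few stellate UMIs of Fabp4, Fabp5, Fabp7 and Marco, depth limits those values.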
